A study of Lycium barbarum and Lycium ruthenicum with 30 samples.

Results

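Black wolfberry, Lycium ruthenicum (LR), is a shrub of the nightshade family whose berries turn from green to black as they ripen. The pigments of the black berry are anthocyanins, which are built from phenylalanine through the phenylpropanoid and flavonoid pathways, whereas the red berry of its relative Lycium barbarum (LB) is coloured by carotenoids. As a fleshy fruit ripens it loses its chloroplasts, softens its walls and gathers sugar. The comparison described here set immature fruit that had begun to colour, taken 30 to 37 days after flowering (S4), against young green fruit taken 9 to 12 days after flowering (S1).

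The unigenes described were those whose FPKM reached 1 in 3 or more of the 6 LR libraries of S1 and S4. FPKM stands for fragments scaled for the length of the unigene and the depth of the library, and a unigene is a cluster of assembled transcripts that stands for a gene. Of 326276 unigenes in the deposited table, 53919 met this rule. Each stage had 3 libraries from fruits of 3 wild shrubs, all of the genotype given as wild type, with no treatment, and the series holds 30 libraries of 2 species and 5 stages. The table's column codes were followed for the species. Code B stands for LR in the study's own key, although the titles and the organism field of those samples name L. barbarum. Libraries are written here as LR1-1 for the first library of S1.

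A level is given below as scaled FPKM, which is the deposited FPKM divided by a factor for its library (median of ratios over the 51586 unigenes above 0 in all 15 LR libraries). A difference is S4 minus S1 on the scale of log2 (scaled FPKM + 0.5), which understates changes of low unigenes. The factors were 1.27, 1.32 and 1.06 at S1 and 0.953, 0.726 and 0.523 at S4. A unigene was called higher or lower where limma, fitted over the 15 LR libraries, put the adjusted p below 0.01 and the change at 2-fold or more. The values below with an adjusted p all come from that test.

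The transcript pool of the black fruit was dominated by a few unigenes that carry no annotation here. The most abundant one at S1, TRINITY_DN85098_c26_g1, stood at 193070, 203412 and 146456 scaled FPKM at S1 and at 12722, 6816 and 13377 at S4, and fell by 4.09 ± 0.36 (SE, n = 3 per stage) on the log2 scale (adjusted p = 2.2e-05). The most abundant one at S4, TRINITY_DN65867_c1_g1, stood at 38962, 27749 and 97461 at S1 and at 117618, 238992 and 379895 at S4. The groups did not overlap, yet the difference of 2.22 ± 0.57 missed the threshold (adjusted p = 0.018). Without LR1-3, the S1 library nearest to the S4 values, it was 2.74 with an adjusted p of 0.0083.

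Together, 28 unigenes that were abundant in LR and under 1% of that level in LB held 28.3%, 28.2% and 41.2% of the FPKM sum in the S1 libraries and 44.2%, 61.2% and 67% in the S4 libraries. The 10 most abundant unigenes of these 6 libraries held 20.3%, 20% and 26.4% at S1 and 25.6%, 34.8% and 38.9% at S4, so that the stages overlapped (mean difference 10.8 percentage points, two-sided exact permutation p = 0.2, where 0.1 is the smallest that 3 against 3 libraries allow). These shares move the FPKM of every other unigene. As deposited, the median difference of the 53919 unigenes was -0.68, against -0.02 after scaling. Read counts per unigene were not available. Relative depth was estimated from the most common ratio of low FPKM values between each library and LR1-1. It was 0.85, 0.935, 1.19, 1.31 and 1.39 for LR1-2, LR1-3, LR4-1, LR4-2 and LR4-3. By this estimate the S4 libraries were the deeper ones.

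**Figure D1:**
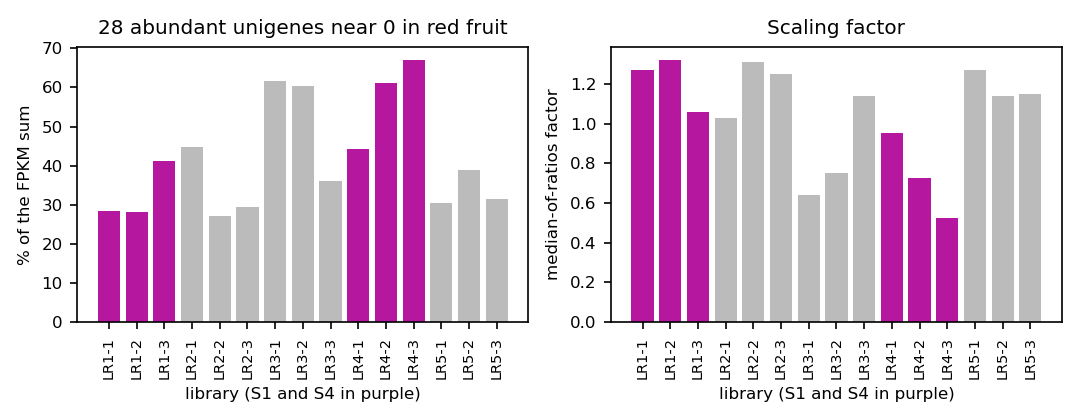
Share of the FPKM sum held by the 28 abundant unigenes (left, percent) and the scaling factor (right, no unit) in each of the 15 LR libraries, with S1 and S4 in purple. The share is highest in LR4-3 (67%), which also has the lowest factor (0.523), and LR1-3 (41.2%) lies near LR4-1 (44.2%).

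Of the 53919 unigenes, 2559 rose and 3830 fell from S1 to S4, which is 11.8% called, 4.75% higher and 7.1% lower. The libraries hold whole fruit, so fewer cells of a type and less RNA per cell cannot be told apart. Among all 74358 unigenes tested over the 15 LR libraries 8.85% were called, 3.65% higher and 5.2% lower. Rises of at least 8-fold were 1120 and falls of that size 1233, while rises of at least 32-fold were 317 and falls 302. The S1 and S4 libraries of all 6389 called unigenes did not overlap, against 15% of the unigenes tested that lay wholly higher and 17.7% that lay wholly lower at S4. With FPKM as deposited, 1288 (2.39%) rose and 5883 (10.9%) fell, 13.3% in all, so that the rises were 18% of the calls in place of 40.1%. All of those 1288 rises were among the 2559, and all of the 3830 falls were among the 5883. Leaving out any 1 library lowered both counts. Without LR1-1, LR1-2, LR1-3, LR4-1, LR4-2 and LR4-3 in turn, 2029, 1577, 2009, 1815, 1757 and 1752 were called higher. In the same order, 2388, 2135, 2546, 2730, 2264 and 2559 were called lower.

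Some of these unigenes reached an FPKM of 1 at 1 stage only. This was judged on FPKM as deposited, which places S4 lower (median difference -0.68, against -0.02 after scaling). How far that shapes the gap between the stages in the counts below was not tested. In all, 31712 had an FPKM of 1 or more in all 6 libraries, 4259 in the 3 S1 libraries and no S4 library, and 979 in the 3 S4 libraries and no S1 library. Unigenes of the last kind made up 681 of the rises, and those of the S1 kind 1691 of the falls. Such unigenes passed the rule through 1 stage, so the selection favoured a difference in that direction. Not all of them were called.

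**Figure D2:**
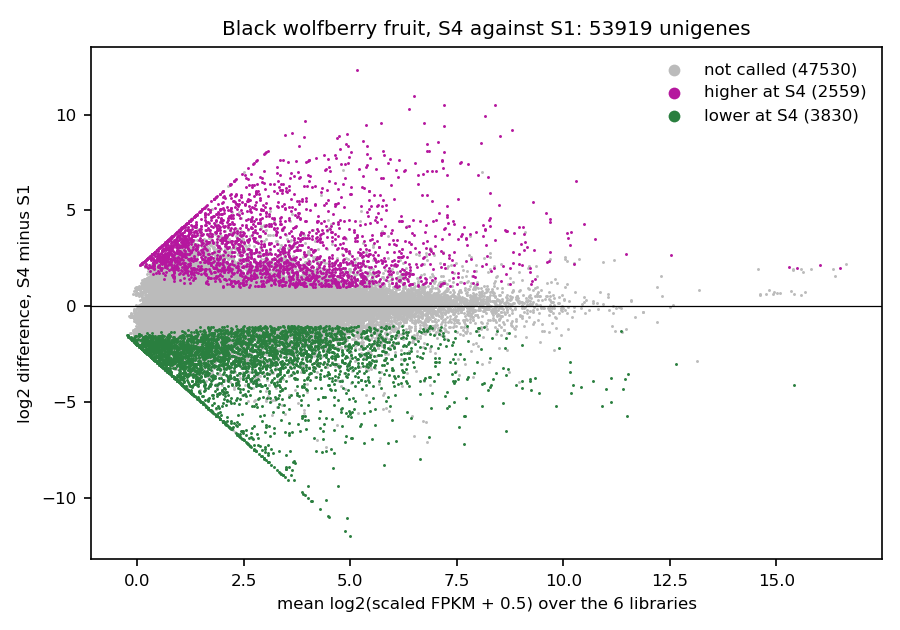
Log2 difference of S4 minus S1 against the mean log2 (scaled FPKM + 0.5) over the 6 libraries, 1 point per unigene, for the 53919 unigenes. Purple points (2559) were called higher and green points (3830) lower at S4, and the straight lower and upper edges at the left are unigenes listed at 0 in the libraries of 1 stage.

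The other LR stages placed these changes in time. Of the 2559 unigenes that rose, 11.3% had passed the midpoint between their S1 and S4 means (log2 scale) at S2, 14 to 19 days after flowering, and 88.7% had passed it at S3, 20 to 26 days after flowering. Of the 3830 that fell, 27% had passed the midpoint at S2 and 91.1% at S3. At S5, 34 to 45 days after flowering, 34.9% of the rises stood higher still and 48.7% of the falls lower still.

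Red fruit gave a comparison with separate libraries. Of the 53919 unigenes, 42937 were also tested over the 15 LB libraries, where 19.4% of all unigenes tested were called between S1 and S4, 8.2% higher and 11.2% lower. Among those 42937, 1037 rose in both species, 50.1% of the LR rises and 20.9% of the LB rises, and 2116 fell in both, 63.2% of the LR falls and 32.7% of the LB falls. Opposite calls were 64 unigenes that rose in LR and fell in LB and 62 of the reverse kind. Because the LR shrubs were wild and those of LB were cultivated and watered elsewhere, the effects of species and of growing site cannot be told apart.

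The unigenes named here for flavonoid and anthocyanin synthesis rose together. CHS, DFR and its paralogue, LDOX, OMT and a GST placed with them here were all called higher, by 2.63 to 7.06 on the log2 scale, and none lost its call with FPKM as deposited (1.87 to 6.31) or in any other alternative run. The study names the unigenes of CHS and LDOX by identifier, and the other 4 were matched through its fold changes between species. It singled out CHS, DFR, its paralogue, LDOX and OMT in these same libraries as low early and very high late. The joint rise therefore follows in part from that choice and from the matching. It is not independent evidence. The study places the GST among immunity genes. CHS (TRINITY_DN73389_c1_g2) encodes chalcone synthase, the enzyme that joins coumaroyl-CoA to malonyl-CoA at the entry of the flavonoid pathway. It stood at 12.2, 7.81 and 6.34 scaled FPKM in the S1 libraries and at 718, 902 and 1695 in the S4 libraries, a rise of 6.85 ± 0.54 (SE, n = 3 per stage, adjusted p = 9.1e-06). A second unigene of the same component, TRINITY_DN73389_c1_g1, rose from 11.6, 1.26 and 1.29 to 93.5, 100 and 284. Unigenes of 1 component may share reads, so the pair are not independent measurements.

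Dihydroflavonol 4-reductase (DFR) turns dihydroflavonols into the colourless precursors of the anthocyanins, and it was already present in young fruit. DFR (TRINITY_DN65703_c4_g1) stood at 137, 98.1 and 67.3 at S1 and at 759, 905 and 983 at S4, and rose by 3.17 ± 0.24 (adjusted p = 6e-06). Its paralogue in the same component (TRINITY_DN65703_c4_g2) stood at 182, 120 and 74.2 at S1 and at 701, 689 and 816 at S4, and rose by 2.63 ± 0.33 (adjusted p = 0.00019). LR1-3 was the lowest and LR1-1 the highest S1 library for both.

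Leucoanthocyanidin dioxygenase (LDOX, TRINITY_DN68066_c0_g2), which makes the coloured anthocyanidins, had the largest rise of the 6. It went from 16.9, 6.4 and 7.05 at S1 to 966, 1233 and 1802 at S4, a difference of 7.06 ± 0.44 (adjusted p = 1.4e-06). A second unigene of that component, TRINITY_DN68066_c0_g5, did not rise. It stood at 7.19, 6.13 and 7.94 at S1 and at 5.23, 5.81 and 4.42 at S4 (-0.43 ± 0.25, adjusted p = 0.31). A flavonoid O-methyltransferase (OMT, TRINITY_DN94955_c0_g1), of the kind that adds methyl groups to the finished ring, was the most abundant of the 6 at S4. It stood at 100, 78.2 and 104 at S1 and at 3427, 4249 and 4793 at S4, and rose by 5.46 ± 0.22 (adjusted p = 3.2e-08). Of the same component, TRINITY_DN94955_c0_g5 and TRINITY_DN94955_c0_g7 averaged 2.21 and 1.86 at S1 and were not called (-0.54 and -0.42). Some glutathione S-transferases carry anthocyanins to the vacuole in petunia and Arabidopsis, and whether the one described here is of that kind is not known. It (GST, TRINITY_DN100219_c3_g1) went from 6.34, 4.28 and 3.77 to 423, 472 and 749, a rise of 6.68 ± 0.27 (adjusted p = 3.8e-08).

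The 6 unigenes differed in their path between the stages. CHS averaged 8.78 ± 3.05 (SD, n = 3) at S1, 14.9 ± 9.82 at S2, 270 ± 158 at S3, 1105 ± 519 at S4 and 2901 ± 1450 at S5. DFR instead fell from 101 ± 34.9 at S1 to a mean of 31.5 ± 5.53 at S2 before it stood at 233 ± 31.2 at S3, 882 ± 114 at S4 and 1395 ± 86.5 at S5, and the paralogue and OMT had the same dip, with S2 means of 37.4 ± 16.8 and 24.9 ± 4.36. The step from S1 to S2 was not tested. All 6 had a higher mean at S5 than at S4.

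**Figure D3:**
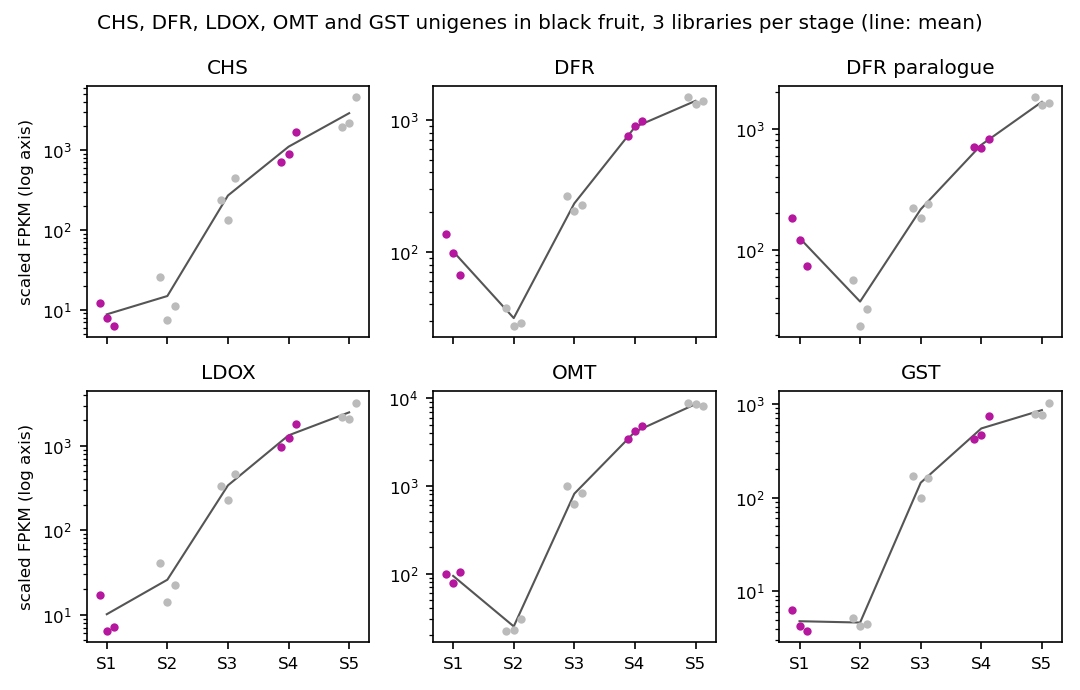
Scaled FPKM (log axis) of CHS, DFR, its paralogue, LDOX, OMT and GST in the 15 LR libraries by stage, 1 point per library, with the line through the stage means and S1 and S4 in purple. The S4 libraries lie above every S1 library in each panel, and DFR, its paralogue and OMT are lowest at S2.

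In red fruit the same unigenes did not rise, but the second unigene of the LDOX component, TRINITY_DN68066_c0_g5, did. It rose by 1.3 ± 0.18 in LB (limma adjusted p = 1e-04), and LR minus LB was -1.73 ± 0.28 (adjusted p = 2e-04). DFR averaged 35.4 ± 24.9 (SD, n = 3) at S1 and 0.0728 ± 0.126 at S4 in LB, OMT 10.9 ± 15.7 and 0, and CHS 36.5 ± 8.65 and 14.5 ± 17.5, while GST was listed at 0 in all LB libraries of both stages. The change from S1 to S4 differed between the species for all 6 unigenes named above, by 6.74 to 8.9 on the log2 scale with limma adjusted p of at most 2.4e-06. In that test 6.47% of all unigenes tested over the 30 libraries were called, 3.35% higher and 3.12% lower in LR. DFR, its paralogue, OMT and GST were matched to their genes through the study's fold changes between species in these libraries. For those unigenes the difference follows from the matching and is not independent evidence. CHS and LDOX were singled out by the study for their late rise over LB in these libraries, so their differences are not independent evidence either.

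The 7 unigenes of the flavone and flavonol list of the study, OMT among them, were all called higher (median difference 3.97, against -0.02 over all 53919 unigenes). With FPKM as deposited 6 of the 7 were called. TRINITY_DN82043_c1_g1 stood at 1.13, 0.858 and 1.04 at S1 and at 33, 29.4 and 87.7 at S4, with a difference of 4.89 ± 0.44. The flavonoid list split instead. Of its 18 unigenes 5 rose, CHS the largest, and 11 fell, among which 6 were annotated as caffeoyl-CoA O-methyltransferase, an enzyme of lignin rather than of anthocyanin synthesis. The falls of that list were near the threshold, and there were 4, 2, 3, 6, 2 and 4 in place of 11 without LR1-1, LR1-2, LR1-3, LR4-1, LR4-2 and LR4-3 in turn. These lists were chosen by the study on the LR libraries, so their counts are not independent evidence of a direction.

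Phenylpropanoid metabolism upstream of the flavonoids supplies both pigments and lignin, the polymer that stiffens cell walls. Of the phenylpropanoid unigenes that the study listed from the LB libraries, 88 met the rule in LR and 25 did not. Of the 88, 12 rose and 35 fell, with a median difference of -0.66. As deposited, 10 rose and 35 fell. Without LR1-2 the falls were 21, and without LR4-2 they were 22. Over all 53919 unigenes 4.75% were called higher and 7.1% lower in LR. In LB, on whose libraries the list was chosen, 17 of the 88 were called higher and 59 lower. Whether the tilt towards falls in LR came with that choice was not tested.

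The entry enzymes changed little or fell. Phenylalanine ammonia-lyase (PAL) removes ammonia from phenylalanine as the first step of the pathway, and 1 of its 4 unigenes fell. That unigene, TRINITY_DN91492_c2_g1, stood at 111, 121 and 171 at S1 and at 33.2, 23.5 and 26.7 at S4, a difference of -2.24 ± 0.40 (adjusted p = 0.0021, and 0.011 without LR1-3 or without LR4-2). The other 3 PAL unigenes had differences of -0.88, -0.64 and 0.35. Cinnamate 4-hydroxylase, listed as trans-cinnamate 4-monooxygenase, adds the first ring hydroxyl. Its main unigene, TRINITY_DN77732_c4_g1, stood at 56.9, 58.4 and 45.7 at S1 and at 55.8, 52.6 and 98.6 at S4, and the stages overlapped (difference 0.31 ± 0.39, adjusted p = 0.66). In red fruit the same unigene fell by 3.22, and the difference between the species of 3.52 was called.

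4-Coumarate--CoA ligase (4CL) activates coumarate for both branches, and its 8 unigenes went both ways, 1 higher and 3 lower. The lowest one, TRINITY_DN66802_c1_g1, went from 61.1, 73.4 and 53.7 to 8.1, 3.43 and 6.83 (-3.32 ± 0.57, adjusted p = 0.0015). TRINITY_DN88753_c0_g1 went from 5.84, 4.5 and 5.34 to 11.9, 17 and 23.8 (1.61 ± 0.32, adjusted p = 0.0043). That rise was not called as deposited (0.88) or without LR1-1, LR1-2, LR1-3, LR4-2 or LR4-3 (adjusted p of 0.012 to 0.021).

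The enzymes that lead to lignin monomers were mostly lower at S4. Both caffeoylshikimate esterase unigenes fell. TRINITY_DN99848_c3_g6 stood at 61.1, 68 and 85.3 at S1 and at 21.1, 15.6 and 17.5 at S4 (-1.95 ± 0.23, adjusted p = 0.00013). TRINITY_DN99848_c3_g5 fell by 1.41 ± 0.26 (adjusted p = 0.0027), a call lost without LR1-2, LR1-3 or LR4-3 (adjusted p of 0.01 to 0.014). All 6 caffeoyl-CoA O-methyltransferase unigenes were called lower, by 1.91 to 2.90, but with adjusted p of 0.0019 to 0.0096, near the threshold. With LR1-1, LR1-2, LR1-3, LR4-1, LR4-2 and LR4-3 left out in turn 2, 0, 1, 2, 0 and 2 of them were called by limma, and 3 with all 30 libraries, while all 6 were lower at an unadjusted p under 0.05 in each of these fits. The most abundant, TRINITY_DN72599_c3_g2, went from 455, 777 and 923 to 123, 55.8 and 112, and its call was lost without LR1-2 or LR4-2 (adjusted p of 0.01 and 0.011). Of 3 caffeic acid 3-O-methyltransferase unigenes, 2 fell, and 1 without LR1-1, LR1-2, LR1-3, LR4-1 or LR4-2. TRINITY_DN98383_c0_g1 stood at 227, 302 and 266 at S1 and at 44.3, 22.9 and 62.3 at S4, a difference of -2.71 ± 0.47.

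Cinnamyl-alcohol dehydrogenases reduce cinnamaldehydes to the lignin alcohols, and of 9 such unigenes 4 fell and 1 rose, with 2 falling without LR4-2, and 2 falling and no rise called when only the 6 libraries were fitted. The rise was alcohol dehydrogenase 3 (TRINITY_DN79928_c2_g1), which stood at 2.3, 0 and 2.1 at S1 and at 25, 41.9 and 49.2 at S4 (4.62 ± 0.68, adjusted p = 0.00059). Its best database match was an 8-hydroxygeraniol dehydrogenase. In red fruit it went the other way, from 382 ± 79.2 to 19.1 ± 7.93 (SD, n = 3), and the difference between the species was 9.09 ± 0.82 (adjusted p = 8.1e-08). The neighbouring unigene of its component, TRINITY_DN79928_c2_g2, fell in LR from 7.63, 15.3 and 8.62 to 0.987, 0.592 and 0.

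Alcohol dehydrogenase 1 (TRINITY_DN94308_c2_g4) stood at 10.9, 9.89 and 5.49 at S1 and at 2.59, 0.702 and 1.95 at S4. The fall of 2.10 ± 0.43 (adjusted p = 0.0045) was lost without LR1-1, LR1-2, LR4-2 or LR4-3 (adjusted p of 0.011 to 0.023). Alcohol dehydrogenase 2 (TRINITY_DN94308_c2_g5) went from 14.9, 8.08 and 10.9 to 1.55, 0 and 1.19, a difference of -3.25 ± 0.48 (adjusted p = 6e-04). Both fell further in LB, by 5.45 and 5.63, and the difference between the species was called for the first of them (3.10 ± 0.50).

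Class III peroxidases oxidise the lignin alcohols in the cell wall, and they formed the group with the most falls. Of 31 listed unigenes 19 met the rule, 15 fell and none rose, with a median difference of -3.21. Among the 4 not called, the differences reached 1.23. TRINITY_DN76898_c0_g2 stood at 218, 133 and 65 at S1 and at 0.231, 0 and 0 at S4, the lowest difference of the phenylpropanoid list (-7.77 ± 0.97, adjusted p = 0.00019). TRINITY_DN69256_c3_g1 stood at 179, 130 and 68.1 at S1 and at 0.189, 0.372 and 0 at S4. In both of these LR1-3 was the lowest S1 library. The peroxidase measured by qPCR in the study (TRINITY_DN75127_c1_g1) was steadier, at 21.2, 24.6 and 22.7 at S1 and 2.78, 3.18 and 3.08 at S4 (-2.73 ± 0.42, adjusted p = 0.00073). By S3 the median of the 19 was already 2.84 below S1.

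Beta-glucosidases split glucose from glycosides such as coniferin, and in this class the changes were large and upward. Of 22 unigenes 7 rose, by 6.21 to 12.32, 1 fell and 14 were not called. TRINITY_DN80120_c0_g3 was listed at 0 in all 3 S1 libraries and stood at 2147, 3431 and 2258 at S4. TRINITY_DN100868_c4_g2 stood at 13.1, 6.67 and 10.1 at S1 and at 1660, 2295 and 2085 at S4. A further unigene of that component, TRINITY_DN100868_c4_g3, had 4.14, 1.12 and 0 at S1 and 989, 1186 and 1102 at S4.

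The 7 that rose came from 4 components, all had beta-glucosidase 11 as their best match, and their reads may be shared. The one measured by qPCR, TRINITY_DN80120_c0_g1, went from 3.82, 3.52 and 4.84 to 299, 332 and 379 (6.21 ± 0.40, adjusted p = 1.9e-06). It also rose in LB, by 4.65, and the difference between the species of 1.60 was not called (adjusted p = 0.046). Coniferyl-aldehyde dehydrogenase, which makes ferulate, likewise had 2 of 4 unigenes higher and none lower. TRINITY_DN91848_c1_g4 stood at 9.53, 6.36 and 10.3 at S1 and at 68.7, 61.9 and 99.6 at S4 (3.06 ± 0.32, adjusted p = 6.8e-05).

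**Figure D4:**
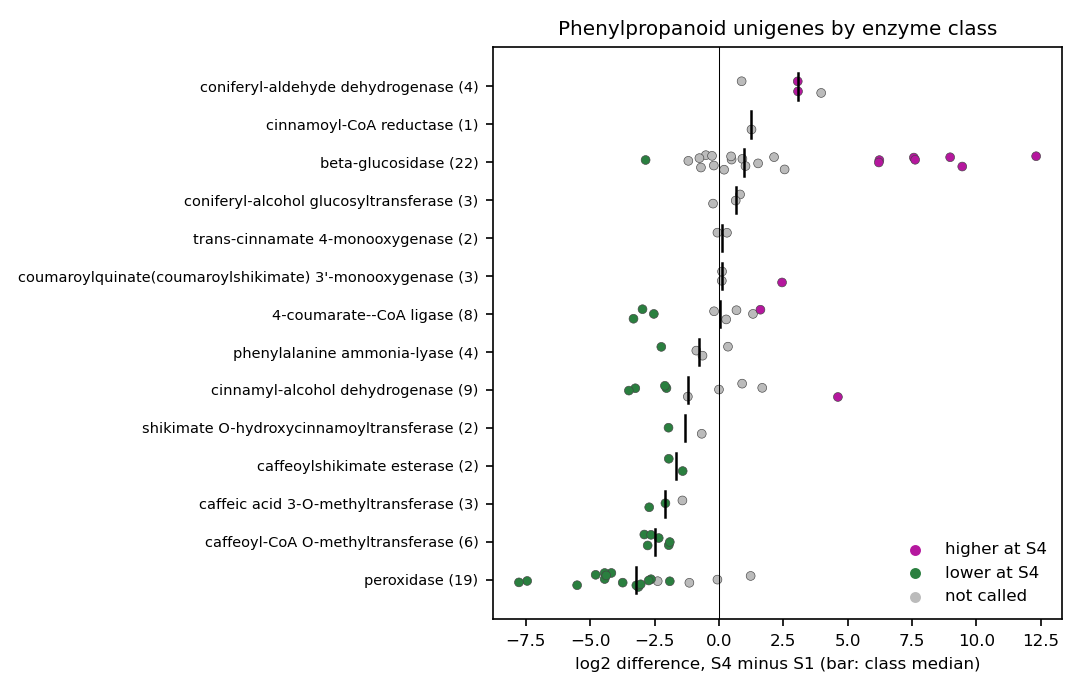
Log2 difference of S4 minus S1 for the 88 phenylpropanoid unigenes that met the rule, 1 point per unigene by enzyme class (number of unigenes in brackets), with the class median as a bar. Peroxidases lie to the left (15 of 19 called lower), and 7 beta-glucosidases form a separate group between 6.21 and 12.32 at the right.

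The remaining classes had few calls. Of 3 unigenes of coumaroylshikimate 3'-monooxygenase 1 rose, TRINITY_DN97146_c3_g3, from 0.284, 0.395 and 2.33 to 3.58, 7.05 and 9.98 (2.45 ± 0.54, adjusted p = 0.0078). It was not called as deposited or without LR1-1, LR1-2, LR4-2 or LR4-3 (adjusted p of 0.03 to 0.037). The 3 coniferyl-alcohol glucosyltransferases had differences of -0.23, 0.65 and 0.82 and the only cinnamoyl-CoA reductase one of 1.26, none of them called.

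The listed unigenes of photosynthesis were mostly lower at S4. The study drew this and its other LR pathway lists from unigenes that changed between the LR stages. A high share of calls therefore follows from that choice. Over all 53919 unigenes 4.75% were called higher and 7.1% lower. Of 17 antenna unigenes, which encode the proteins that hold chlorophyll around the photosystems, 15 fell and none rose (median -4.05). TRINITY_DN78016_c2_g1 went from 330, 318 and 348 to 10.2, 9.23 and 21.6, a difference of -4.65 ± 0.38 (adjusted p = 1.2e-05). TRINITY_DN67789_c3_g5 stood at 251, 95.5 and 59.1 at S1 and was listed at 0 in all 3 S4 libraries. Of the 18 photosynthesis unigenes 16 fell (median -2.60), and TRINITY_DN95576_c0_g3 went from 123, 144 and 120 to 8.77, 4.78 and 11.3. The antenna median was -0.80 at S2, -2.66 at S3 and -5.06 at S5 relative to S1. All 17 were also called lower in LB.

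The linoleic acid and isoquinoline alkaloid lists had mostly falls. Linoleic acid metabolism, which includes the lipoxygenase reactions, had 15 of 16 unigenes lower (median -3.11), though 5 when only the 6 libraries were fitted. TRINITY_DN95597_c14_g5 stood at 162, 147 and 193 at S1 and at 27.4, 2.77 and 1.78 at S4 (-4.82 ± 0.85, adjusted p = 0.0019, and 0.011 without LR4-2). Of 17 unigenes in the isoquinoline alkaloid list 13 fell and 1 rose (median -4.76), and 8 fell when only the 6 libraries were fitted. It shares 16 of its 17 unigenes with the tyrosine list, so the 2 lists are 1 result. TRINITY_DN66418_c4_g2 stood at 159, 54.2 and 46.5 at S1 and at 0.945, 0.165 and 0.421 at S4, a difference of -6.27 ± 0.48. Steroid biosynthesis had 8 of 13 lower, and none higher.

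Lists of sugar metabolism differed in direction. Galactose metabolism, a list that in plants takes in the enzymes of raffinose sugars and invertases, had 14 of 18 unigenes higher and 1 lower (median 3.78). TRINITY_DN94597_c1_g1 went from 13.4, 6.18 and 8.78 to 1038, 1304 and 1134 (6.92 ± 0.38, adjusted p = 4.7e-07). TRINITY_DN94597_c2_g1 went from 12.8, 2.41 and 4.37 to 800, 777 and 784 (7.10 ± 0.43). The 1 fall was TRINITY_DN82314_c0_g2, from 6.82, 6.13 and 7.09 to 0.945, 0.881 and 1.57, and it was lost without LR1-1, LR1-2, LR1-3, LR4-1 or LR4-2. In LB 11 of the 18 rose. Starch and sucrose metabolism had 2 of 18 higher and 9 lower, amino sugar and nucleotide sugar metabolism 2 and 7 of 18, and pentose and glucuronate interconversions 4 and 11 of 17.

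Carotenoid biosynthesis, the pathway of the red pigments, went both ways in black fruit, with 7 of 17 unigenes higher and 4 lower (5 and 8 as deposited). Without LR1-3, 4 were higher, and without LR1-2 or LR4-1, 2 were lower. TRINITY_DN77401_c1_g2 stood at 46.4, 30 and 10.7 at S1 and at 556, 552 and 354 at S4, a rise of 4.24 ± 0.78 (adjusted p = 0.0025). That call was lost without LR1-3, LR4-1 or LR4-2 (adjusted p of 0.011 to 0.013). TRINITY_DN92833_c0_g2 stood at 0, 1 and 0 at S1 and at 32.9, 36.5 and 27.8 at S4 (5.50 ± 0.64, adjusted p = 0.00013). Both fell in LB, by 3.74 and 5.59, and the difference between the species was called for each. Neither of these 2 unigenes carries an annotation here.

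**Figure D5:**
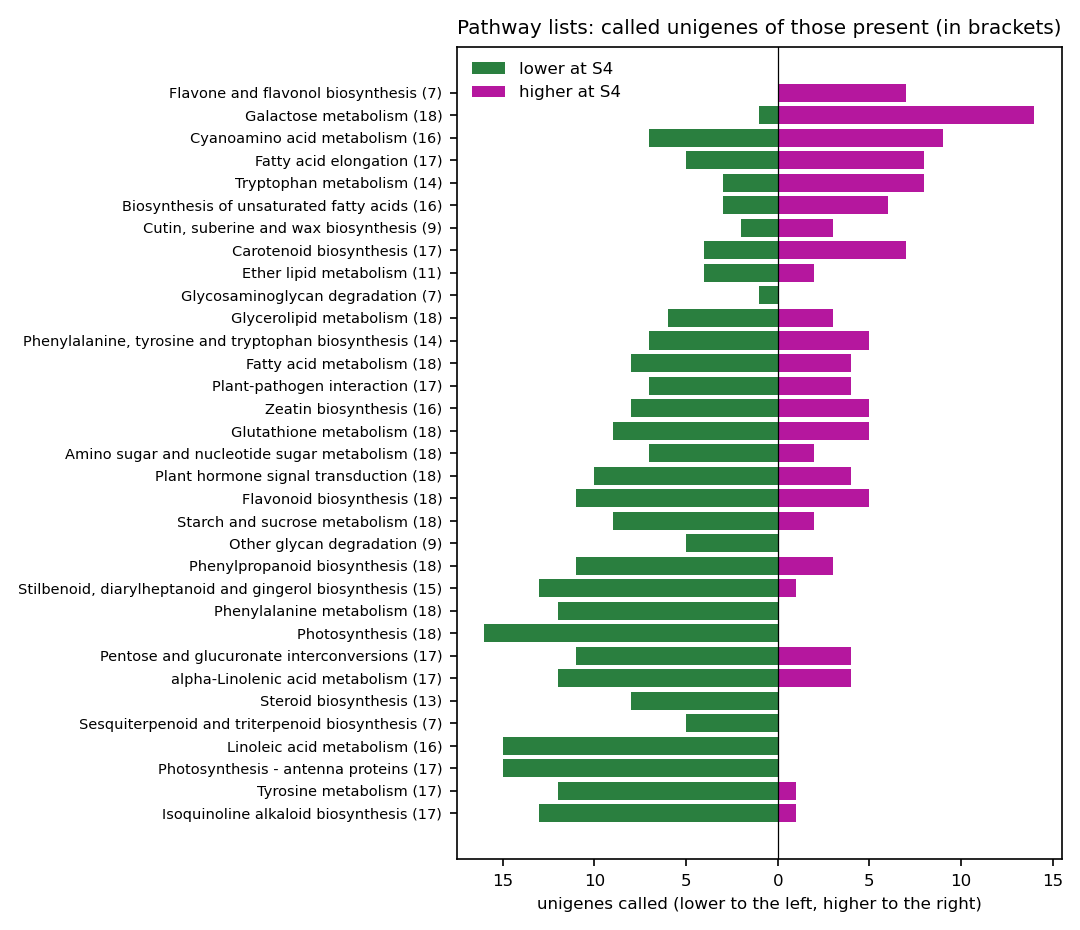
Number of unigenes called lower (green, to the left) and higher (purple, to the right) at S4 for the pathway lists with 7 or more unigenes that met the rule (their number in brackets), ordered by median difference. Flavone and flavonol biosynthesis (7 higher, none lower) is at the top, and isoquinoline alkaloid biosynthesis (1 higher, 13 lower) is at the bottom.

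Among defence-related unigenes the EIX receptor 1/2 unigene, whose relatives recognise a fungal xylanase in tomato, fell. It (TRINITY_DN95128_c2_g1) stood at 23.1, 17.2 and 20.5 at S1 and at 0.493, 0.757 and 1.19 at S4 (-4.01 ± 0.41, adjusted p = 5.2e-05), with a mean of 3.56 ± 2.30 (SD, n = 3) already at S2. The study's text gives no identifier for the EIX receptor 1/2, which was matched through its fold changes between species. It reports this gene as raised over LB in early stages only, from these same libraries. The fall therefore follows from the matching and is not independent evidence. Chitinase, which degrades fungal cell walls, did not pass the test. Its unigene (TRINITY_DN77127_c1_g3) stood at 15.1, 10.1 and 89.3 at S1 and at 18, 2 and 3.08 at S4, so the stages overlapped and LR1-3 stood apart (-2.16 ± 0.83, adjusted p = 0.1).

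The disease resistance gene RPM1 (TRINITY_DN73733_c4_g1), an immune receptor known from Arabidopsis, had 14, 12.8 and 16.2 at S1 and 15.8, 14.9 and 19.6 at S4 (0.22 ± 0.25, adjusted p = 0.63). Phosphoglycerate kinase (PGK, TRINITY_DN74949_c3_g2), an enzyme of glycolysis, had 39.1, 45.4 and 43.8 at S1 and 38.4, 37.7 and 34.8 at S4 (-0.21 ± 0.20, adjusted p = 0.57). EIX receptor 1/2, chitinase, RPM1 and PGK were all listed at 0 in the LB libraries of both stages. Another unigene of the PGK component, TRINITY_DN74949_c3_g1, averaged 44.8 at S1 and 60.1 at S4 in LB. In the chitinase component TRINITY_DN77127_c1_g2 averaged 30.1 and 1.42 in LB, while TRINITY_DN77127_c1_g1 was listed at 0. The zeros therefore do not show that these genes were silent in red fruit. The plant-pathogen interaction list had 4 of 17 unigenes higher and 7 lower. Its largest rise, TRINITY_DN89104_c1_g3, stood at 0, 0.137 and 0 at S1 and at 206, 253 and 423 at S4 (9.02 ± 0.35, adjusted p = 3.2e-08). As deposited, or without LR1-2, LR4-2 or LR4-3, 2 of that list were higher.

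Over all 35 lists that the study drew from the LR libraries, of which at most 18 unigenes each were readable, 377 unigenes met the rule, 92 rose and 189 fell (median -1.66). As deposited, 67 rose and 224 fell. These lists were chosen on the LR stages, so this share of calls is not independent evidence. Glutathione metabolism had 5 higher (3 as deposited) and 9 lower of 18. Hormone signal transduction had 4 higher and 10 lower of 18, though none higher as deposited, and fatty acid elongation 8 higher and 5 lower of 17. In fatty acid elongation 2, 1, 3 and 2 were lower without LR1-1, LR1-2, LR1-3 and LR4-2. Of lists drawn from the LB libraries, ribosome had 0 of 18 unigenes called by limma (2 at an unadjusted p under 0.05, median 0.09) and glycerophospholipid metabolism 1 of 15.

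Outside every list, the largest rises with non-overlapping stages were TRINITY_DN73379_c1_g1, from 32.2, 0 and 0 to 5547, 3613 and 3381, and TRINITY_DN71338_c0_g1, from 108, 12.1 and 0 to 15578, 12798 and 10366. The means of both were lower at S5, at 763 ± 662 and 2297 ± 2060 (SD, n = 3). The largest falls were TRINITY_DN69489_c7_g2, from 1923, 2512 and 1731 to 0 in all 3 libraries, and TRINITY_DN78391_c1_g1, from 2414, 2023 and 1023 to 0. The same 4 unigenes moved in the same directions in LB. None of them carries an annotation here.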

How the data were processed

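Per the study's methods, the authors trimmed reads with Cutadapt, assembled both species with Trinity, clustered transcripts with Corset and deposited FPKM per unigene to 2 decimals. The labels name Bowtie2, with no version given in the sources used here. FPKM depends on the rest of the library, so the 15 LR libraries were scaled by median of ratios. In R 4.3.3, limma 3.58.1 (lmFit, eBayes with trend and robust) was fitted to log2 (scaled FPKM + 0.5) of 74358 unigenes whose FPKM reached 1 in 3 or more LR libraries, with 1 mean per stage and 10 residual degrees of freedom. The p-values are two-sided, with Benjamini-Hochberg adjustment over all of them. LB was fitted separately, and the difference between species over 30 libraries in 10 groups with their own scaling. Correlations of log2 levels were 0.85 to 0.877 within S1, 0.834 to 0.863 within S4 and 0.685 to 0.752 between them. The p-values measure the spread between shrubs. They treat libraries of different stages as independent, and the study does not state whether S1 and S4 fruits came from the same shrubs.

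Named unigenes were those the study ties to a gene, some only through its fold changes between species, all of small enzyme classes, up to 12 phenylpropanoid unigenes per direction and up to 2 per direction and pathway list with the largest called differences and non-overlapping stages, the 2 largest per direction outside the lists and the most abundant at each stage. Unigenes of the same component were also named. The unigenes and lists were chosen with earlier results of these data known. The code was tested on simulated data. No unigene sequence or length was used here.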

Additional observations from a re-analysis of the deposited data

Results flagged for a closer look

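The change from S1 to S4 differed between LR and LB, in the test of that difference itself, for 9 of the 15 unigenes tied to a gene. On the log2 scale, LR minus LB, it was 8.9 for CHS, 7.37 for LDOX, 8.46 for DFR, 7.96 for its paralogue, 8.55 for OMT, 6.74 for GST, 9.09 for alcohol dehydrogenase 3, 3.1 for alcohol dehydrogenase 1 and -4.1 for the EIX receptor 1/2. GST and the EIX receptor 1/2 were listed at 0 in the LB libraries of both stages, so for them the value is the change in LR alone. DFR, its paralogue, OMT, GST and the EIX receptor 1/2 were matched through the study's fold changes between species. CHS and LDOX were singled out by the study for their late rise over LB in these libraries. The differences of all these unigenes are therefore not independent evidence. Alcohol dehydrogenase 2 had a difference of 1.93, which was called only without LR4-2 (2.66, adjusted p = 0.0019 in limma). Groups of 3 libraries are too small for a test of single libraries that stand apart.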

How the results depend on the processing

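With FPKM as deposited 1288 unigenes were called higher and 5883 lower, and with only the 6 libraries 1630 and 2424. With the 28 most abundant unigenes of the 6 libraries in place of the 10, the mean share was 40.1% at S1 and 56.8% at S4. The difference was 16.7 percentage points. This set is not the 28 unigenes that were abundant in LR and under 1% of that level in LB. Leaving out 1 library at a time gave 1577 to 2029 higher and 2135 to 2730 lower, 10 to 12 higher and 21 to 28 lower of the phenylpropanoid list, 81 to 89 higher and 134 to 155 lower of the pathway lists, and differences of 7.92 to 14.5 points in the share of the 10 most abundant unigenes. Scaling to sums without the 28 unigenes low in LB, an alternative chosen after seeing the data, called 2626 higher and 3578 lower. The study does not state whether replicate numbers pair the samples of S1 and S4. Deviations of libraries with the same number correlated at 0.06, 0.05 and 0.13, which is too weak to decide it. With the replicate number as a block 2981 unigenes were called higher and 4357 lower, 14 and 35 of the phenylpropanoid list and 95 and 193 of the pathway lists, and in the comparison of species 24 and 9 of the phenylpropanoid list in place of 20 and 7. Every S1 library correlated best with its own number, a hint from the data and not the design. Of 157 named unigenes 141 were called, 97 of them under every alternative, and no called difference changed sign. Without counts or lengths, counting error was not computed, and a listed 0 is not an absence.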

Other observations

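Unsaturated fatty acid biosynthesis, which sets the double bonds of membrane and storage lipids, had 6 of 16 unigenes higher and 3 lower at S4 (median 1.09), and 4 and 5 with FPKM as deposited. Without LR1-1, LR1-3 or LR4-3, 1 was lower. TRINITY_DN97444_c4_g3 stood at 9.19, 7.18 and 6.04 scaled FPKM at S1 and at 34.2, 44.8 and 49.9 at S4, a rise of 2.45 ± 0.23 (SE, n = 3 per stage, limma adjusted p = 3.4e-05). Of 9 unigenes for cutin, suberine and wax, the polymers and lipids of the fruit surface, 3 rose and 2 fell. TRINITY_DN75489_c0_g1 of that list stood at 0.537, 0.0304 and 0.188 at S1 and at 158, 123 and 161 at S4. Zeatin biosynthesis, the cytokinin pathway, had 5 of 16 unigenes higher and 8 lower, and TRINITY_DN93685_c1_g1 went from 198, 56.4 and 82 to 0.987, 0.647 and 1.15. The study drew these 3 lists from the LR libraries.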
